A study of Mus musculus with 6 samples.

Results

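Antibody genes are assembled in each B cell by joining 1 of many variable (V) segments to shorter segments beside a constant region gene, so the V segments found in RNA show which antibody genes the B cells and plasma cells of a tissue used. The 159 V segments described here are those with a symbol beginning Ighv, Igkv or Iglv and a mean of at least 1 FPKM (fragments per kilobase of exon, with a correction for how deeply each library was sequenced) over all 6 bone libraries. They come from 348 V segments listed among 54532 genes. The heavy chain locus on chromosome 12 supplied 75 of its 185 listed segments, the kappa locus on chromosome 6 supplied 81 of 160, and the lambda locus on chromosome 16 supplied all 3. The level that chose them is a description and was not tested. Just inside the rule lay Igkv1-132 (mean 1.02 FPKM) and Igkv14-130 (1.10 FPKM), and just outside it lay Igkv9-123 (0.929 FPKM) and Ighv14-1 (0.836 FPKM). Of the listed segments, 94 were at 0 in all libraries.

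The knockout libraries, labelled MIR29cb2-/- and called KO here, came from bone of mice that lack the miR-29cb2 cluster, from which the microRNAs miR-29c and miR-29b-2 are made, and 3 libraries were made. The other 3 libraries came from wild-type (WT) bone. All 6 are labelled as bone of 16-week-old female C57BL/6J mice, and no further allele or agent is given for either group. Which bone was taken, whether marrow was left in it, and whether each library is 1 animal are not stated.

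A V segment is chosen by the recombinase made from Rag1 and Rag2. In a B cell precursor a heavy chain V segment is joined first and pairs with the surrogate light chain, after which a kappa or lambda V segment is joined. Offspring of 1 B cell carry the same joined segments, so an expanded clone raises its own V segments above the rest. Plasma cells, many of which live in bone marrow, hold far more antibody RNA than other B cells, and 1 plasma cell clone can therefore weigh heavily in a tissue's V segment RNA. These are background facts. In bulk RNA, more cells with a segment and more RNA per cell cannot be told apart.

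The sequences below are those the results turn on: the 3 segments that differed between genotypes, and the heavy chain and kappa segments with the largest share in any library. Each is the last 300 coding bases of the V exon, 5′ to 3′ on the coding strand, from the GENCODE M21 transcript (mm10). Capitals mark the last match to TANTNCTGN, a pattern of tyrosine and cysteine codons searched on the coding strand only, since the codon for a conserved cysteine lies near the end of V segments. In the last 60 coding bases 145 of 157 members with a coding sequence (92.4%) held the pattern, as did 49 of 61 other listed coding V segments (80.3%). Igkv4-57 lies at chr6:69575975-69576274 on the minus strand, Igkv8-21 at chr6:70314895-70315194 (minus), Ighv8-8 at chr12:115294062-115294361 (minus), Ighv1-81 at chr12:115920279-115920578 (minus) and Igkv1-117 at chr6:68121528-68121827 (plus).
Igkv4-57: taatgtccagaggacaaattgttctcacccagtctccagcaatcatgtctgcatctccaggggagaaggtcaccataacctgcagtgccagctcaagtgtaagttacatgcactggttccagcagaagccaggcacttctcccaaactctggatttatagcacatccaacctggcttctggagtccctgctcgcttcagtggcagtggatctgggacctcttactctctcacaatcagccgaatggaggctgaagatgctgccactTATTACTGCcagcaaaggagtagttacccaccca
Igkv8-21: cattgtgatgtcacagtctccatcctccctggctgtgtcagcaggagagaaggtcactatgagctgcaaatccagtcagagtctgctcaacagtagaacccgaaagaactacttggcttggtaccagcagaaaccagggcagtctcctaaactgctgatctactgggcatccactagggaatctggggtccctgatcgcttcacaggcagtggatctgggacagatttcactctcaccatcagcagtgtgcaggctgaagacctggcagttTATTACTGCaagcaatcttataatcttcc
Ighv8-8: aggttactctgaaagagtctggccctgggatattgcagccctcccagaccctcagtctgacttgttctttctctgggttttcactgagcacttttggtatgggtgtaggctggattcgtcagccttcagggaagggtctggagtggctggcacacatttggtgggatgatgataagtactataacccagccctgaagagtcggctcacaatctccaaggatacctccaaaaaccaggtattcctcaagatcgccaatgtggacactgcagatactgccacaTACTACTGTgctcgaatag
Ighv1-81: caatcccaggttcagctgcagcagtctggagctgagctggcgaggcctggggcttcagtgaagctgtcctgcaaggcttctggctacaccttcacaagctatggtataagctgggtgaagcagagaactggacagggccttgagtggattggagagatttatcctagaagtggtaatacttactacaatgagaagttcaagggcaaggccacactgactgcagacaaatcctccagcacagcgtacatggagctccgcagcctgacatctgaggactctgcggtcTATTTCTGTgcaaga
Igkv1-117: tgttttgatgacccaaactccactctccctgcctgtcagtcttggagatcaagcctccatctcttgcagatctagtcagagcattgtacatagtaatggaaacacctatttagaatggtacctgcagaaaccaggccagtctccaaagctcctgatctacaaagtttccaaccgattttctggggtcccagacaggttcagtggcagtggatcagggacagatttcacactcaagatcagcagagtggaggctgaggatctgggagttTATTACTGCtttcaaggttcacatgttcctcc

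The lambda pair shows how alike V segments can be. Iglv1 (chr16:19085017-19085316, minus strand) and Iglv2 (chr16:19260401-19260700, minus strand) differed at 11 of 351 coding positions, an identity of 96.9%, and 8 of those positions lie in the printed 300 bases, where capitals mark them.
Iglv1: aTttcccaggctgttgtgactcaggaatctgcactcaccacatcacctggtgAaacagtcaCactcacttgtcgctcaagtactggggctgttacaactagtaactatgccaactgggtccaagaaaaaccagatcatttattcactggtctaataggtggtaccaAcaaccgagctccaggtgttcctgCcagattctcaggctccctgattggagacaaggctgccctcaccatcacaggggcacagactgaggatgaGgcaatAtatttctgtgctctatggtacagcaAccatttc
Iglv2: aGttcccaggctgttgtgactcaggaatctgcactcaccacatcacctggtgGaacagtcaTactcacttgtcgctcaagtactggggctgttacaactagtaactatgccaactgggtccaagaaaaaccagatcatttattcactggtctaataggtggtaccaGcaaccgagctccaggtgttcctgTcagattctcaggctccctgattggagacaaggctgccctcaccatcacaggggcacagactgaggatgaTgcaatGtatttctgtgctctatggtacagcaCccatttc

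Over their annotated transcripts, the median member was 92.2% identical to its closest listed V segment, and 41 of 159 were at least 95% identical to another. Reads shared by such segments could have been split between them, and the counting rule is not given in the sources used here. Igkv1-117 was 96.8% identical to Igkv1-110, Ighv8-8 96.1% to Ighv8-5, Igkv4-57 94.3% to Igkv4-54 and Igkv8-21 88.5% to Igkv8-30. Of the members, 157 are annotated as coding V genes and 2 as pseudogenes. All 159 have at least 2 exons, with total exon lengths from 329 to 480 bases (median 360). Recovered reads per member, summed over 6 libraries, ranged from 39 to 6461 with a median of 368, and 102053 reads lay on all members.

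The libraries held 16727111 to 20118034 recovered reads on genes. KO replicate 1 and WT replicate 2 stood apart, with FPKM totals of 487102 and 489576, against 355787 to 404994 in the other 4. Short genes, to which V segments belong, were high in these libraries. Over 310 other genes of 250 to 450 bases, the median log2 deviation from the mean of all libraries was 0.20, 0.01 and -0.08 in KO replicates 1 to 3, and -0.11, 0.10 and -0.02 in WT replicates 1 to 3. The labelled tissue was checked with bone genes. Bglap, which encodes osteocalcin, had 414, 132 and 166 FPKM in KO and 586, 1015 and 446 FPKM in WT libraries, and Ctsk, the osteoclast protease cathepsin K, had 176, 194 and 70.2 FPKM in KO and 439, 660 and 295 FPKM in WT libraries. Both were present throughout and lower in every KO library than in every WT library. Mir29b-2 and Mir29c were listed at 0 in all libraries and check nothing, as such short genes are hardly caught by this library type. Their host transcript A330023F24Rik had 2.51, 3.25 and 4.08 FPKM in KO and 0.197, 0.153 and 0.136 FPKM in WT libraries.

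How much V segment RNA each library held was examined first, by locus. Heavy chain V segments summed to 495, 1007 and 620 FPKM in KO libraries and to 878, 528 and 897 FPKM in WT libraries. The groups overlapped, and the means were 707 ± 267 FPKM in KO and 768 ± 207 FPKM in WT (SD, n = 3 each), a ratio of 0.921. Kappa V segments were the largest class, with 1113, 1920 and 1038 FPKM in KO libraries and 1415, 2053 and 1579 FPKM in WT libraries. KO replicate 2 lay among the WT libraries, and the ratio of means was 0.806. Lambda V segments summed to 133, 211 and 141 FPKM in KO libraries and to 494, 248 and 245 FPKM in WT libraries. Every KO library lay below every WT library, with a ratio of means of 0.49. No p is given for these sums, since their members were chosen with results of these data known.

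**Figure D1:**
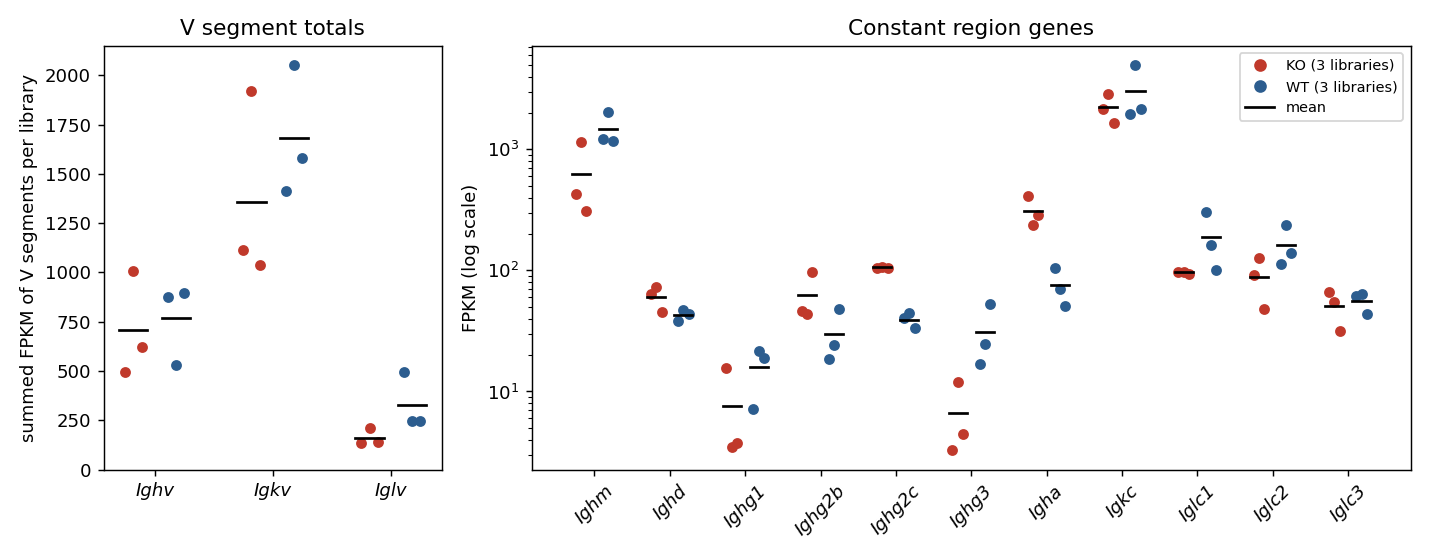
V segment and constant region RNA by library. Left, summed FPKM of the member V segments of each locus; right, FPKM of the immunoglobulin constant genes on a log axis; points are libraries (KO red, WT blue) and bars are means of 3. Lambda V totals do not overlap between KO (133 to 211) and WT (245 to 494), and Igha and Ighg2c are higher in all KO libraries.

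Lambda light chains in mice come from few V segments, and their values were traced one by one. Iglv1 had 90.7, 104 and 106 FPKM in KO libraries and 357, 108 and 105 FPKM in WT libraries. WT replicate 1 stood alone, and the other 5 libraries lay close together. Of the lambda joining and constant genes, Iglj1 (98.4 FPKM) and Iglc1 (305 FPKM) were also highest in that library, against at most 57.8 FPKM for Iglj1 and 162 FPKM for Iglc1 elsewhere. Iglj3 was highest in KO replicate 3, Iglc3 in KO replicate 1 and Iglc2 in WT replicate 2. Iglv2 had 22.2, 83.0 and 19.4 FPKM in KO libraries and 117, 115 and 120 FPKM in WT libraries. All KO libraries lay below the tight WT group, and the log2 change of -1.79 ± 0.50 (SE) did not pass in limma (adjusted p = 0.095). KO replicate 2 was the highest KO library, and without it the log2 change was -2.44 (limma adjusted p = 0.025). Leaving out the KO library nearest to the WT group is bound to widen the difference. Iglv2 did not pass on leaving out any other single library. Iglv3 had 19.8, 23.5 and 15.2 FPKM in KO libraries and 20.01, 24.9 and 20.1 FPKM in WT libraries, with groups that overlapped. Of the lambda V total, Iglv1 made up 68.3%, 49.4% and 75.4% in KO libraries and 72.3%, 43.7% and 42.9% in WT libraries.

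Segment usage within a locus does not depend on how a library was scaled, and it was used to ask whether 1 segment dominated a library. The largest heavy chain share was 33.8% in KO replicate 1, that of Ighv1-81. It rested on 973 of 2986 recovered heavy chain V reads, or 32.6% (95% exact Clopper-Pearson interval 30.9 to 34.3%, counting error only). The second segment of that library, Ighv1-18, reached only 3.02%. Ighv1-81 also led KO replicate 3 with 20.2%, and Ighv1-26 led KO replicate 2 with 13.2%. In WT libraries the leaders were Ighv6-6 in replicate 1 (9.98%), Ighv8-8 in replicate 2 (19.2%) and Ighv1-26 in replicate 3 (8.31%). The largest share was thus 22.4 ± 10.5% in KO and 12.5 ± 5.84% in WT libraries (SD, n = 3 each), and the groups overlapped.

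The effective number of segments, which is the inverse Simpson index and equals the number of equally used segments that would give the same concentration, puts this in 1 value per library. For the heavy chain it was 8.0, 23.5 and 15.9 in KO libraries and 25.7, 13.7 and 28.2 in WT libraries. The lowest value was that of KO replicate 1 and the highest that of WT replicate 3, and the groups overlapped through WT replicate 2. From 7 to 9 segments made up 50% of heavy chain V RNA in KO libraries, against 6 to 10 in WT libraries.

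Kappa usage was spread over more segments. Igkv1-117 led KO replicate 1 with 23.2% and KO replicate 3 with 9.16%, and Igkv10-94 led KO replicate 2 with 7.26%. In KO replicate 1 its share rested on 1726 of 6931 reads, or 24.9% (exact interval 23.9 to 25.9%). The WT libraries were led by Igkv4-90 in replicate 1 (11.2%), Igkv4-59 in replicate 2 (16.2%) and Igkv6-23 in replicate 3 (6.19%). The effective number was 14.1, 36.0 and 29.8 in KO libraries and 28.1, 19.5 and 35.3 in WT libraries, and the groups overlapped. Their difference in means, -1.03 segments, changed sign without KO replicate 1 (5.24) and without WT replicate 3 (2.80). KO replicate 1 was therefore the most concentrated library for heavy chain and kappa alike, and WT replicate 2 came next in both loci. These are the 2 libraries in which short genes were high, and the part of this in their usage was not tested. Without both, the difference in effective number was -7.23 for heavy chain and 1.17 for kappa, beside -6.73 and -1.03 with all libraries. For heavy chain it was -2.82 without KO replicate 1, -3.88 without WT replicate 3, -10.6 without KO replicate 2 and -11.1 without WT replicate 2.

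**Figure D2:**
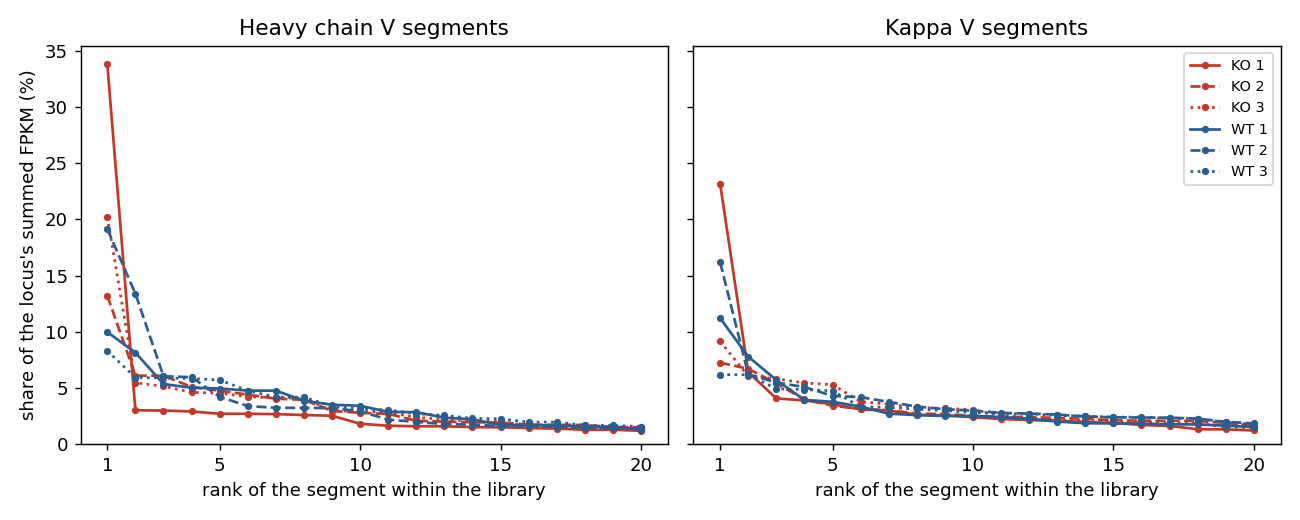
Share of each locus's V segment FPKM (y axis, percent) held by its 20 highest segments in each library, ranked within the library (x axis); KO libraries are red, WT libraries blue. KO replicate 1 starts at 33.8% for the heavy chain and 23.2% for kappa, and after the first ranks the 6 curves run close together.

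The leading segments differed between libraries of the same genotype. Ighv6-6 had 5.58, 6.27 and 1.94 FPKM in KO libraries and 87.6, 3.16 and 4.66 FPKM in WT libraries, so it was high in WT replicate 1 only. Igkv4-90 had 2.23, 0.653 and 6.73 FPKM in KO libraries and 159, 0.873 and 8.97 FPKM in WT libraries, with the same library on top. Igkv1-122 had 1.89, 1.20 and 60.5 FPKM in KO libraries and 4.44, 1.47 and 1.30 FPKM in WT libraries, so it was high in KO replicate 3. Igkv4-59 was highest in WT replicate 2, with 332 FPKM, against 12.6, 58.2 and 9.42 FPKM in KO libraries and 55.8 and 40.5 FPKM in the other WT libraries.

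The other leaders had their highest values in 5 different libraries. KO replicate 2 held the highest values of Ighv1-26 (133 FPKM), Ighv1-55 (61.4 FPKM), Ighv1-9 (61.4 FPKM), Ighv1-18 (47.9 FPKM), Igkv19-93 (129 FPKM), Igkv10-94 (139 FPKM), Igkv6-17 (104 FPKM) and Igkv9-120 (76.5 FPKM). KO replicate 3 held that of Ighv1-19 (32.0 FPKM). WT replicate 3 held those of Igkv6-23 (97.8 FPKM), Igkv3-2 (97.6 FPKM), Igkv5-39 (77.9 FPKM), Igkv1-110 (75.03 FPKM), Ighv3-6 (52.9 FPKM) and Ighv1-80 (51.3 FPKM). WT replicate 2 held those of Igkv3-4 (128 FPKM) and Igkv4-68 (113 FPKM), and WT replicate 1 that of Igkv10-96 (80.9 FPKM). Some were nearly as high in a second library, such as Igkv1-110 (71.3 FPKM in KO replicate 1), Ighv3-6 (47.0 FPKM in WT replicate 1) and Igkv3-4 (110 FPKM in WT replicate 1). None of these 18 segments passed the test between genotypes described next.

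**Figure D3:**
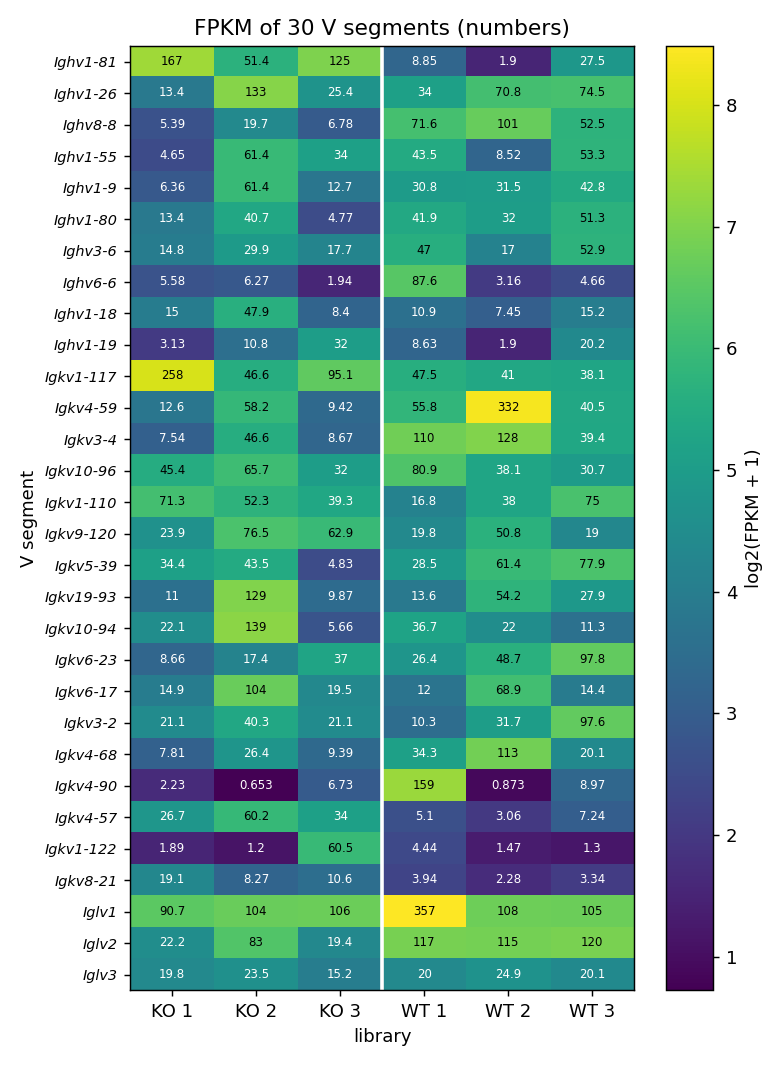
FPKM of 30 V segments in the 6 libraries (KO left, WT right; rows are segments by locus, colour is log2(FPKM + 1), numbers are FPKM). Igkv4-57, Igkv8-21 and Ighv1-81 are higher in all KO libraries and Ighv8-8 in all WT libraries, while rows such as Igkv4-90 and Igkv1-122 are bright in 1 library.

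A segment was called a single-library segment when its highest library was at least 3 times the second. This held for 31 of 159 V segments (19.5%), against 24 of 13431 other genes tested (0.179%) and 2 of 310 other short genes. KO replicates 1 to 3 held 1, 11 and 2 of them, and WT replicates 1 to 3 held 8, 6 and 3. The sharpest, named after its values were seen, was Igkv4-71, with 20.505 FPKM in WT replicate 3 and at most 0.163 FPKM elsewhere. A range of at least 10-fold over the 6 libraries was found for 75 of 159 segments, and 10 were at 0 in some library. These counts describe the libraries and carry no test.

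The same unevenness showed in the spread between libraries of a group. The residual SD in limma on log2(FPKM + 1) had a median of 0.92 over the V segments, 0.87 for heavy chain, 1.02 for kappa and 0.71 for lambda. It was 0.20 over all 13619 genes tested, 0.38 over other short genes and 0.19 over other genes within the middle range of the segments' levels. The likeness of whole repertoires had overlapping ranges within and between genotypes. Across the 75 heavy chain segments, Spearman's rho of FPKM was 0.59 to 0.67 between KO libraries, 0.46 to 0.72 between KO and WT libraries, and 0.52 to 0.62 between WT libraries. Across the 81 kappa segments it was 0.49 to 0.71 between KO libraries, 0.51 to 0.64 between KO and WT libraries, and 0.54 to 0.63 between WT libraries. These values are across segments, which share their library and are not replicates.

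Genotypes were compared segment by segment with limma over all 13619 genes with a mean of at least 1 FPKM, with Benjamini-Hochberg adjustment over all of them and a call at 0.05 or below. Of 159 V segments 3 passed, or 1.89%, against 5.16% of all genes tested. Higher in KO were 2 (1.26%, against 1.34% of all genes), and lower was 1 (0.629%, against 3.82%). All members entered the test because the same mean chose them, so a segment high in only 1 group could enter through that group and the count is a description. The median log2 change was -0.14 over the V segments, with 67 above 0 and 92 below, and 0.06 over all genes.

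Igkv4-57, a kappa V segment printed above, had 26.7, 60.2 and 34.0 FPKM in KO libraries and 5.10, 3.06 and 7.24 FPKM in WT libraries. The groups stood well apart, and the segment rose in KO (40.3 ± 17.6 against 5.13 ± 2.09 FPKM, SD, n = 3 each; log2 change 2.73 ± 0.35 SE; limma adjusted p = 0.0148). Igkv8-21, another kappa segment, had 19.1, 8.27 and 10.6 FPKM in KO libraries and 3.94, 2.28 and 3.34 FPKM in WT libraries. It rose in KO (12.7 ± 5.71 against 3.19 ± 0.840 FPKM; log2 change 1.65 ± 0.30; limma adjusted p = 0.0323). Ighv8-8, the heavy chain segment that led WT replicate 2, had 5.39, 19.7 and 6.78 FPKM in KO libraries and 71.6, 101 and 52.5 FPKM in WT libraries. It fell in KO (10.6 ± 7.91 against 75.1 ± 24.6 FPKM; log2 change -2.86 ± 0.46; limma adjusted p = 0.0234). These calls sat near the threshold. Igkv4-57 did not pass without WT replicate 1 (limma adjusted p = 0.0614). Ighv8-8 did not pass without KO replicate 1 (0.0635), KO replicate 3 (0.0564), WT replicate 1 (0.0904) or WT replicate 2 (0.0577), and Igkv8-21 without any single library (0.0526 to 0.0904).

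Ighv1-81, the leader of KO replicates 1 and 3, had 167, 51.4 and 125 FPKM in KO libraries and 8.85, 1.90 and 27.5 FPKM in WT libraries. The groups did not overlap and the log2 change, 3.47 ± 0.82 (SE), was the largest of any member, but it missed the threshold (limma adjusted p = 0.0608). Without WT replicate 3, the highest WT library, the log2 change was 4.28 (limma adjusted p = 0.0395). Dropping the library nearest to the other group is bound to widen the difference. On leaving out any other single library Ighv1-81 did not pass. Igkv1-117 had 258, 46.6 and 95.1 FPKM in KO libraries and 47.5, 41.0 and 38.1 FPKM in WT libraries. KO replicate 2 lay within the WT range, and the log2 change of 1.30 ± 0.55 did not pass (limma adjusted p = 0.241). Groups that did not overlap were found for 17 of 159 segments (10.7%), against 28.4% of all genes. Of these 9 were higher in KO (5.66%, against 14.7%) and 8 lower (5.03%, against 13.7%). An unadjusted limma p under 0.05 was reached by 25 segments (15.7%), against 20.6% of all genes.

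**Figure D4:**
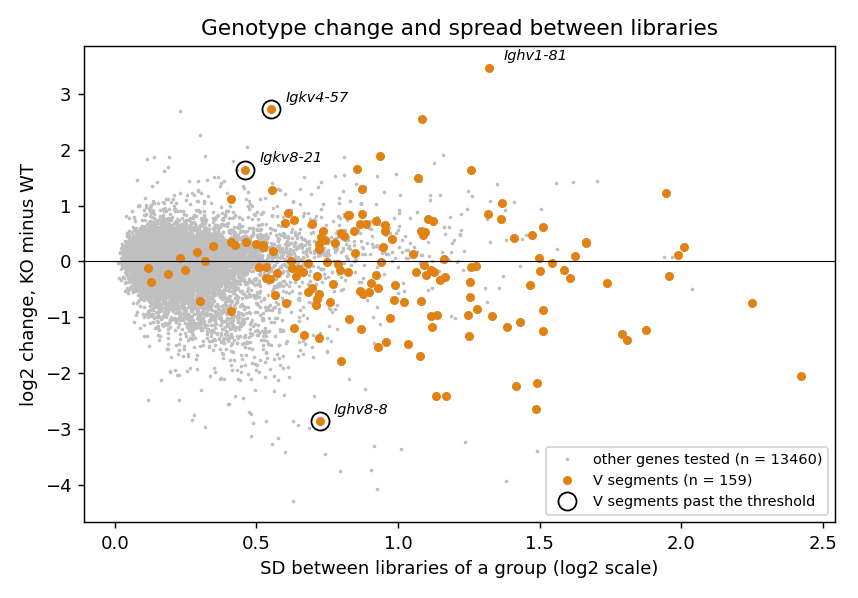
Log2 change between genotypes (y axis, KO minus WT on log2(FPKM + 1)) against the SD between libraries of a group (x axis, log2 scale) for V segments (orange) and all other genes tested (grey). Most V segments lie to the right, with a median SD of 0.92 against 0.20 over all genes; circles mark the 3 that passed.

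V segments are grouped into families by sequence, and a family's share can rest on 1 segment, so each was also computed with the family's highest segment left out of its locus. The Ighv1 family, the largest in the mouse, held 68.6%, 67.6% and 63.9% of heavy chain V RNA in KO libraries and 50.4%, 53.2% and 59.2% in WT libraries. All KO libraries lay above all WT libraries (66.7 ± 2.48% against 54.3 ± 4.48%, SD, n = 3 each). This separation rested on Ighv1-81: without it the Ighv1 share was 52.5%, 65.9% and 54.7% in KO libraries and 49.9%, 53.1% and 57.9% in WT libraries, and the groups overlapped. Ighv5 held 7.28%, 6.26% and 8.16% in KO libraries and 2.82%, 3.92% and 3.83% in WT libraries, without overlap. The groups stayed apart without Ighv5-6 (3.79% to 5.85% in KO and 2.61% to 3.52% in WT libraries). Ighv8, the family of Ighv8-8, held 3.0%, 6.42% and 5.44% in KO libraries and 8.95%, 20.4% and 6.95% in WT libraries, so all KO libraries were lower. Without Ighv8-8 the direction was the opposite, with 1.93%, 4.55% and 4.4% in KO libraries and 0.858%, 1.51% and 1.17% in WT libraries. What was left was mostly 1 segment, Ighv8-12. It had 7.92, 44.4 and 25.7 FPKM in KO libraries and 5.29, 5.87 and 7.12 FPKM in WT libraries (limma adjusted p = 0.135). The only other member, the pseudogene Ighv8-10, reached at most 2.79 FPKM. Ighv3 and Ighv9 were also lower in every KO library, but overlapped without Ighv3-6 and Ighv9-3, and the 9 other heavy chain families overlapped.

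Among kappa families, Igkv4 held 10.3%, 21.3% and 15.2% in KO libraries and 30.6%, 36.5% and 22.9% in WT libraries. Every KO library lay below every WT library, although Igkv4-57 of the same family rose. Without Igkv4-59 the groups were still apart, with 9.25%, 18.9% and 14.5% in KO libraries and 27.8%, 24.3% and 20.9% in WT libraries. Igkv4-59 is the leader of WT replicate 2 only. In WT replicate 1 another member, Igkv4-90, held 11.2% of kappa V RNA, against at most 0.65% in any other library. The Igkv4 share without Igkv4-90 was not computed, so the separation may rest on these single-library segments. Igkv3 held 6.49%, 8.41% and 5.10% in KO libraries and 11.4%, 9.53% and 15.1% in WT libraries, again lower in KO. Igkv9 held 6.10%, 5.41% and 7.30% in KO libraries and 2.15%, 4.91% and 1.87% in WT libraries, higher in KO. Both overlapped when their highest segment, Igkv3-4 or Igkv9-120, was left out. Igkv1 held 32.4%, 7.69% and 23.8% in KO libraries and 8.55%, 5.63% and 9.97% in WT libraries, and overlapped through KO replicate 2. Of 17 kappa families, 14 overlapped. Shares of a whole are tied to one another, and no test was made of them.

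**Figure D5:**
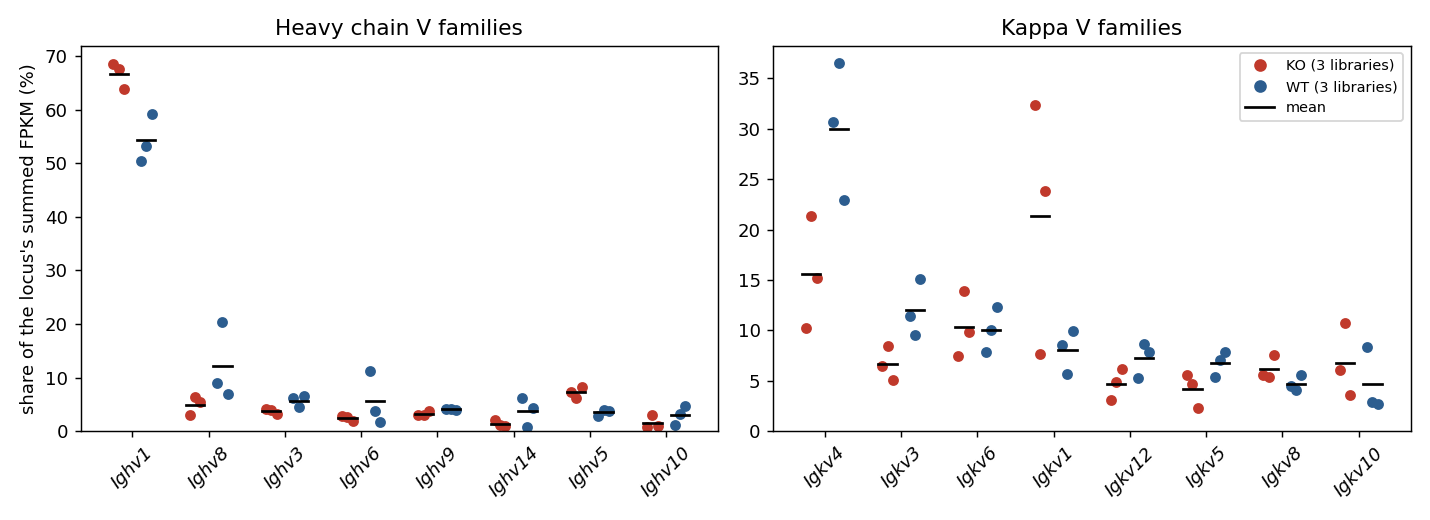
Share of each locus's V segment FPKM (y axis, percent) held by the 8 heavy chain and 8 kappa V families with the highest mean share in WT libraries. Points are libraries (KO red, left of WT blue), and bars are means of 3. Ighv1 and Ighv5 are higher in all KO libraries, and Ighv8, Ighv3, Ighv9, Igkv4 and Igkv3 lower. Without the highest segment of the family this held for Ighv5 and Igkv4. Igkv4 was not computed without Igkv4-90, which is high in WT replicate 1 only. Igkv9, also higher in all KO libraries, is not among the families shown.

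Usage was also set against position along the locus. The listed heavy chain segments lay 143 to 2580 kb from Ighj1, the nearest joining segment, with a median distance of 1217 kb. The 37 members within that median held 31.0%, 32.9% and 33.6% of heavy chain V RNA in KO libraries and 51.1%, 38.6% and 39.8% in WT libraries. All KO libraries lay below all WT libraries. Without Ighv1-81, which lies far from them, the share was 46.9%, 34.7% and 42.1% in KO libraries and 51.6%, 38.7% and 41.0% in WT libraries, and the groups overlapped. In the kappa locus the 44 members within the median distance of 1483 kb from Igkj1 held 35.6%, 52.9% and 38.0% in KO libraries and 44.5%, 69.9% and 63.8% in WT libraries, and the groups overlapped. Ighv1-81 lies 2491 kb from the joining segments and Ighv8-8 1865 kb, and both thus count as far. All heavy chain and lambda members lie on the minus strand. Of the kappa members 32 lie on the plus strand, that of the kappa joining segments, and 49 on the minus strand, from which joining inverts the stretch between.

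The constant region genes, counted apart from the V segments, show which antibody classes were transcribed. Igha, the heavy chain of IgA, had 414, 237 and 286 FPKM in KO libraries and 106, 69.9 and 51.0 FPKM in WT libraries. It rose in KO (log2 change 2.06 ± 0.31 SE, limma adjusted p = 0.0211), with groups far apart, and did not pass without KO replicate 1 (0.057), KO replicate 2 (0.0646) or WT replicate 2 (0.0565). Ighg2c, an IgG heavy chain of C57BL/6 mice, had 105, 108 and 105 FPKM in KO libraries and 40.3, 44.5 and 33.2 FPKM in WT libraries. It also rose (1.42 ± 0.14, limma adjusted p = 0.00847), and the libraries of each group lay close together. Of 7 heavy chain constant genes tested 2 rose and 0 fell, against 1.34% and 3.82% of all genes tested.

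Ighm, the heavy chain of IgM, had 427, 1152 and 311 FPKM in KO libraries and 1222, 2048 and 1172 FPKM in WT libraries. Every KO library was lower, but the change did not pass (log2 change -1.42 ± 0.51, limma adjusted p = 0.169). Ighg3 had 3.27, 12.025 and 4.44 FPKM in KO libraries and 16.8, 24.6 and 52.4 FPKM in WT libraries and did not pass either (limma adjusted p = 0.0666). The groups overlapped for Ighg2b (KO 43.7 to 96.9 FPKM, WT 18.7 to 47.7 FPKM), Ighd, the heavy chain of IgD (KO 45.6 to 73.3 FPKM, WT 38.2 to 47.3 FPKM), and Ighg1 (KO 3.5 to 15.6 FPKM, WT 7.17 to 21.4 FPKM). Ighe, of IgE, reached at most 0.228 FPKM in KO and 0.105 FPKM in WT libraries and was not tested.

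Genes past Ighm and Ighd are used after class switching. Together they made up 54.4%, 24.8% and 58.2% of heavy chain constant RNA in KO libraries and 13.0%, 8.09% and 14.3% in WT libraries. All KO libraries lay above all WT libraries, and Igha alone made up 38.5%, 14.6% and 33.6% in KO and 7.28%, 3.07% and 3.60% in WT libraries. The summed heavy chain constant RNA was 853 to 1630 FPKM in KO libraries and 1419 to 2280 FPKM in WT libraries. The V segments of IgA and IgM antibodies cannot be told apart in these data, because V and constant parts were counted as separate genes.

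Of 4 light chain constant genes tested, 0 passed in limma or with voom on recovered reads, and 0 had an unadjusted limma p under 0.05. The limma shares over all genes were 5.16% and 20.6%, so 0 of 4 says little. Igkc, the only kappa constant gene, had 2147, 2866 and 1651 FPKM in KO libraries and 1954, 4966 and 2163 FPKM in WT libraries. Iglc1 had 97.4, 97.3 and 94.2 FPKM in KO libraries and 305, 162 and 100 FPKM in WT libraries, with every KO library lower (log2 change -0.82 ± 0.37, limma adjusted p = 0.274). Iglc2 had 91.8, 126 and 48.2 FPKM in KO libraries and 113, 236 and 139 FPKM in WT libraries. Iglc3 had 66.7, 55.1 and 31.7 FPKM in KO libraries and 61.1, 63.7 and 44.0 FPKM in WT libraries. Iglc4 stayed under 1 FPKM in all libraries. Lambda constant genes held 10.6%, 8.85% and 9.54% of light chain constant RNA in KO libraries and 19.7%, 8.497% and 11.6% in WT libraries. WT replicate 1, the library high in Iglv1, was the highest.

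The joining segments, to which V segments are fused, gave 0 calls of 11 tested in limma and with voom on recovered reads. An unadjusted limma p under 0.05 was reached by 0 of the joining segments. Over all genes tested in limma, 5.16% passed and 20.6% had an unadjusted p under 0.05. The joining segments with the smallest limma p were Ighj1 (log2 change 0.75), Igkj1 (-0.44) and Iglj1 (-0.34), and the smallest limma adjusted p was 0.482. The joining segments sum to 356 to 668 FPKM in KO libraries and 259 to 776 FPKM in WT libraries. Iglj2 was at 0 in all libraries.

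Of 13 genes of B cell precursors tested 3 fell and 0 rose, with a median log2 change of -0.62 beside 0.06 over all genes. Of all genes tested, 3.82% fell and 1.34% rose. Vpreb1, which encodes part of the surrogate light chain, had 2.62, 5.75 and 2.27 FPKM in KO libraries and 23.7, 27.9 and 12.8 FPKM in WT libraries (log2 change -2.32, limma adjusted p = 0.022). Igll1, the other part of that chain, had 2.20, 4.43 and 1.68 FPKM in KO libraries and 18.7, 16.5 and 8.91 FPKM in WT libraries (-2.06, limma adjusted p = 0.0254). Vpreb2, a close copy of Vpreb1, had 0.795, 0.681 and 0.457 FPKM in KO libraries and 5.31, 7.22 and 2.04 FPKM in WT libraries (-1.72, limma adjusted p = 0.0404). The KO libraries lay below the WT libraries for all 3. The whole list summed to 77.6 to 110 FPKM in KO libraries and to 131 to 201 FPKM in WT libraries. Leaving out single libraries left 0 to 4 of the list lower, with 0 called without KO replicate 1, WT replicate 1 or WT replicate 2 and 1 without KO replicate 3.

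Mature B cell genes gave 0 calls of 16 tested in limma and with voom, and 2 had an unadjusted limma p under 0.05. Of all genes tested in limma, 5.16% passed and 20.6% had an unadjusted p under 0.05, so 0 calls in a short list says little. The 3 with the smallest p were Blnk, an adaptor of the B cell receptor (log2 change -0.43, limma adjusted p = 0.159), Cr2, a complement receptor (0.39, 0.178), and Blk, a B cell kinase (-0.41, 0.257). The list summed to 767 to 1266 FPKM in KO libraries and to 1044 to 1524 FPKM in WT libraries. That sum was weighted to Cd74, its largest gene in every library (497, 354 and 302 FPKM in KO, 421, 719 and 535 FPKM in WT libraries). The median log2 change of the list was -0.05, beside 0.06 over all genes. Groups did not overlap for 1 higher gene, Cr2, and 2 lower ones, Blnk and Blk. Of all genes tested, 14.7% were higher and 13.7% lower without overlap. Germinal centre and class switch genes also gave 0 calls of 7 in limma and with voom and 0 unadjusted p under 0.05, with Gcsam (log2 change 0.27), Bcl6 (-0.22) and Apex1 (0.29) lowest in p.

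Against 3.82% of all genes tested that fell and 1.34% that rose, 1 of 14 plasma cell genes fell and 0 rose. It was Sdc1, the surface protein syndecan-1 by which plasma cells are often sorted, with 6.75, 6.35 and 4.597 FPKM in KO libraries and 13.9, 16.4 and 10.9 FPKM in WT libraries (log2 change -1.09 ± 0.19 SE, limma adjusted p = 0.0287). Its groups did not overlap. Leaving out any single library but WT replicate 3 ended the call (limma adjusted p = 0.0587 to 0.101). Xbp1, a factor of secretory cells, lay higher in all KO libraries and did not pass (log2 change 0.60, limma adjusted p = 0.0632), nor did Creld2 (0.98, limma adjusted p = 0.076). Both passed with voom on recovered reads (adjusted p = 0.0371 for Xbp1 and 0.0443 for Creld2), with the length trend removed and rescaled to the total of other genes, so that 2 of the list were higher and 1 lower there. The list summed to 374 to 509 FPKM in KO libraries and to 394 to 578 FPKM in WT libraries. Its median log2 change was -0.36, beside 0.06 over all genes. Groups did not overlap for 6 lower genes, Sdc1, Slamf7, Mzb1, Prdm1, Irf4 and Pou2af1, and for 2 higher ones, Xbp1 and Creld2. Of all genes tested, 13.7% were lower and 14.7% higher without overlap. An unadjusted limma p under 0.05 was reached by 8 of the 14, against 20.6% of all genes. Genes of the plasma cell niche gave 0 calls of 8 in limma and with voom (2 with an unadjusted p under 0.05), with Tnfsf13b, which encodes the B cell survival factor BAFF (-0.66, limma adjusted p = 0.0953), Tnfsf13, which encodes APRIL (0.52, 0.128), and Cxcl12 (-0.32, 0.302) lowest in p.

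Of 21 genes tested for antibody secretion and folding in the endoplasmic reticulum, 7 rose and 0 fell, with a median log2 change of 0.51 beside 0.06 over all genes. Of all genes tested, 1.34% rose and 3.82% fell. Herpud1 (-0.15), Ddit3 (-0.15) and Dnajb9 (-0.02) had log2 changes below 0. Sdf2l1, a chaperone partner, had 136, 95.9 and 109 FPKM in KO libraries and 31.9, 36.3 and 34.4 FPKM in WT libraries (log2 change 1.69, limma adjusted p = 0.00712). Hyou1 had 27.2, 23.6 and 25.001 FPKM in KO libraries and 11.7, 12.8 and 11.6 FPKM in WT libraries (1.01, limma adjusted p = 0.010). Hspa5, the chaperone BiP, which was first described bound to heavy chains, had 249, 190 and 194 FPKM in KO libraries and 103, 122 and 112 FPKM in WT libraries (0.90, limma adjusted p = 0.0337). The other 4 were Pdia6, Calr, Edem1 and Hsp90b1. Groups did not overlap for any of the 7. These genes work in all secretory cells, not in B cells alone. The number that rose was 1 without WT replicate 1, 2 without any 1 of the KO libraries or WT replicate 3, and 4 without WT replicate 2.

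Marker genes of other cell types were compared as well, and their part in these results was not tested. Over all genes tested in limma, 3.82% fell, 5.16% passed in either direction and 20.6% had an unadjusted p under 0.05. Of 11 neutrophil genes 3 rose, against 1.34% of all genes tested. These were the granule proteases and peroxidase Ctsg (log2 change 1.63), Prtn3 (1.51) and Mpo (1.05). Without single libraries 0 to 2 of them rose, with 0 when WT replicate 1 was left out. The list summed to 40081 to 51588 FPKM in KO libraries and to 21385 to 40344 FPKM in WT libraries. Of 8 monocyte and macrophage genes Csf1r fell (-0.68, limma adjusted p = 0.0276), a call lost on leaving out any single library (0.055 to 0.103), and Cd68 (-0.55) and Ccr2 (0.66) did not pass. Rescaled to the total of other genes, Csf1r did not pass (limma adjusted p = 0.0847) and Cd68 did (0.0443). Cd68 also passed with voom on recovered reads (adjusted p = 0.0438). With the length trend removed, both Cd68 (limma adjusted p = 0.0303) and Ccr2 (0.0433) passed. The monocyte list summed to 337 to 422 FPKM in KO libraries and to 303 to 332 FPKM in WT libraries. That sum was weighted to Ly6c2, the largest gene of the list in every library. It had 272, 184 and 216 FPKM in KO libraries and 126, 150 and 166 FPKM in WT libraries (limma adjusted p = 0.151). Ly6c2 and Ccr2 were higher in every KO library, and Csf1r and Cd68 were lower. The median log2 change of the list was -0.13, beside 0.06 over all genes. In limma and with voom 0 of 12 T and NK cell genes passed (2 with an unadjusted p under 0.05), with Nkg7 (0.88), Cd4 (-0.40) and Cd8a (0.29) lowest in p. That list summed to 133 to 167 FPKM in KO libraries and to 80.2 to 130 FPKM in WT libraries. The sum was weighted to Nkg7, its largest gene in every library (109, 64.3 and 85.6 FPKM in KO, 35.1, 53.8 and 49.3 FPKM in WT libraries). Nkg7 was the only gene of the list higher in every KO library, and Cd4 was lower in every KO library. Nkg7 passed with the length trend removed (limma adjusted p = 0.0288) and rescaled to the total of other genes (0.0353). Of 8 erythroid genes 0 passed in limma or with voom, and 0 had an unadjusted p under 0.05, with Hba-a2 (0.58), Hbb-bs (-0.30) and Hba-a1 (-0.22) lowest in p and sums of 31000 to 54213 FPKM in KO libraries and 30532 to 63225 FPKM in WT libraries.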

How the data were processed

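RNA from 6 bone libraries was analysed, 3 KO and 3 WT, grouped by the sample titles and genotype labels. Frozen bone was taken up in Trizol, per the labels' protocols, and a TruSeq kit (Illumina) turned total RNA into libraries. The authors deposited 1 table of FPKM values for 54532 genes. Bowtie 0.12.2 and build mm10 are named in the submitters' processing notes. Not given in the sources used here are the counting tool, its annotation, its handling of reads that match several segments, and whether it used strand. Reads are counted on germline segments, and how reads from mutated antibody genes were counted was not tested.

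Of the gene identifiers 54495 matched GENCODE M21 (mm10), which gave symbols, exon lengths, coordinates and sequences. FPKM multiplied by exon length moved in fixed steps. With a tolerance of 0.01 reads, 96.9% of 29600 genes above 0 gave whole reads in every library, all 159 members among them. Intervals on reads cover counting error only.

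The test was limma 3.58.1 under R 4.3.3, with a trend on expression, on log2(FPKM + 1), a scale on which fold changes of weakly expressed genes come out too small. Genes with a mean of at least 1 FPKM (13619) were tested and adjusted together by Benjamini-Hochberg at 0.05, two-sided. The labels do not say that libraries are separate animals, so p-values measure the spread between libraries, which may be technical. No library repeated another: within a group, chi-square over degrees of freedom lay between 12.9 and 73.2. Totals, shares and effective numbers carry no test. Identity between segments was 1 minus the edit distance over the longer transcript (edlib 1.3.9.post1).

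The text names every member past the threshold, the 3 highest segments of each locus in each library (30 segments in all), every measured constant gene, and the 3 genes of each list with the smallest p. Other names were chosen after their values were seen. The members and lists were chosen with earlier results of these data known. Alternatives covered the pseudocount, filter, scaling, length trend, variance model, library weights, the replicate block, voom on recovered reads, and leaving out libraries. Shares with a leading segment left out were added after seeing the data.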

Additional observations from a re-analysis of the deposited data

How the results depend on the processing

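The number of V segments called in limma was small and moved with the settings. It was 2 higher and 1 lower in the KO libraries as reported, 3 and 1 with a pseudocount of 0.1, 2 and 2 with each library's length trend removed, 3 and 3 with the replicate block, and 3 and 1 with voom on recovered reads. It was 0 and 0 with no filter on low values, and 13 and 17 with library weights. Leaving out each library in turn gave 0 to 3 higher and 0 to 3 lower segments. Without KO replicate 1 and WT replicate 2, the 2 libraries that stood apart, it was 5 and 1. The cause of these shifts was not tested. The share of all genes called was worked out for the fit used in the report only (1.34% higher and 3.82% lower). Counts of V segments or list genes under the other settings thus cannot be set against all genes, and are no result about them. Whether the replicate numbers pair the samples was not settled. Deviations of same-numbered KO and WT libraries correlated at -0.49, -0.27 and 0.16. These values cannot decide it, because KO replicate 1 and WT replicate 2 stood apart and carry different numbers. With the replicate block Igkv4-57 did not pass (limma adjusted p = 0.053) and Ighv1-81 did (0.0429).

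Alternatives that kept all libraries moved the V totals, largest shares and effective numbers by less than the spread between libraries. Leaving libraries out did so too, but this outcome was fixed in advance. With 3 libraries per group, dropping 1 cannot move the group mean by more than the group's SD. The sign of the difference still turned for the heavy chain total, the largest kappa share and the effective number of kappa segments. For single libraries left out, the mean log2 difference of totals was -0.43 to 0.08 for heavy chain, -0.63 to -0.19 for kappa and -1.19 to -0.64 for lambda. Differences in the largest share ran from 4.24 to 14.5 percentage points for heavy chain and from -2.99 to 4.96 for kappa.

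Some log2 changes that had not passed changed sign. With library weights these were Apex1 (-0.014), Ighv1-19 (-0.34), Ighv1-26 (0.48), Ighv1-55 (0.10), Ighv1-9 (0.11), Igkc (0.21), Igkv1-110 (-0.16), Igkv19-93 (1.53), Iglc3 (0.10) and Iglv3 (0.095). Without KO replicate 1 and WT replicate 2 together they were Apex1 (-0.0018), Ighv1-26 (0.21), Igkc (0.081), Igkv10-96 (-0.12) and Igkv19-93 (0.87). Igkv10-96, at 0.0031 in the fit used for the report, was -0.028 with median-of-ratios scaling, -0.076 with the length trend removed, -0.038 rescaled to the total of other genes and -0.039 with voom.
Over single libraries or the 2 together left out, the log2 changes ran as follows: Apex1 (-0.0018 to 0.40), Hba-a1 (-0.49 to 0.069), Hba-a2 (-0.068 to 0.96), Ighv1-19 (-0.29 to 1.23), Ighv1-26 (-1.56 to 0.21), Ighv1-55 (-1.09 to 0.72), Ighv6-6 (-2.27 to 0.10), Igkc (-0.60 to 0.081), Igkv1-110 (-0.018 to 1.03), Igkv1-122 (-0.32 to 2.09), Igkv10-94 (-0.83 to 1.37), Igkv10-96 (-0.28 to 0.41), Igkv19-93 (-1.33 to 0.87), Igkv3-2 (-1.06 to 0.50), Igkv6-17 (-0.42 to 1.71), Iglc3 (-0.40 to 0.12) and Iglv3 (-0.30 to 0.0021).

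For named genes and segments, 1331 comparisons with an alternative were made. The call and direction held in 1160, the call was lost in 88, gained in 39 and the sign turned in the 44 given above. edgeR and DESeq2 were planned on recovered reads and not run, because the deposited unit is FPKM. Depth limits the lowest members, with 39 reads over all libraries for the least abundant. With the replicate block, 1 of the secretory genes rose in place of 7, and 0 neutrophil genes in place of 3.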
